A study of Glycine max with 4 samples.

Results

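The glycinin and β-conglycinin loci of soybean were examined for occupancy by GmWRI1 in embryos. The loci were Glyma.03G163500 (*Gy1*), Glyma.13G123500 (*Gy5*) and Glyma.10G246300 (β-conglycinin). Their members were the ChIP-Seq peaks that overlapped the binding positions listed by the study for these 3 genes, which were 4 positions, of which 2 belong to *Gy1*. There were 4 such peaks among 22982 peaks in replicate 1 and 4 among 20027 peaks in replicate 2. The positions came from the same samples, so that the presence of a peak on them is a description and not independent evidence of binding.

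Glycinins are legumin-type and β-conglycinins are vicilin-type globulins, and together they form most of the protein reserve of the soybean seed. They are made in the cotyledons during maturation and packed into protein storage vacuoles. Their genes are best known as targets of the maturation regulators LEC1, ABI3, FUS3 and bZIP factors. WRINKLED1, an AP2-type transcription factor, is known instead for activating genes that turn sugars into fatty acids.

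Chromatin came from early maturation stage embryos (cultivar Williams 82) out of seeds of 6 to 7 mm, with no treatment or mutant. For ChIP it was precipitated with an antibody raised against a peptide of GLYMA.08G227700 (GmWRI1-A), which per the study's methods also recognises GmWRI1-B. There were 2 ChIP libraries, each with a peak list, and 2 input libraries of total chromatin, labelled as biological replicates. The inputs entered only through the authors' peak calling. Tissue identity could not be checked against marker genes, because peak lists hold no expression values. The antibody cannot tell the 2 GmWRI1 proteins apart.

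Each peak carried the authors' fold enrichment, which is the number of ChIP reads over the local background at the peak summit, each with 1 added. The median peak had a fold enrichment of 3.92 in replicate 1 and 4.71 in replicate 2, and a median of 37 and 26 reads at its summit. The 5% of peaks with the highest values began at 14.8 in replicate 1 and 18.4 in replicate 2. Over the 15181 regions occupied in both lists, replicate 2 gave a median of 1.13 times the value of replicate 1. Library totals were not read, and depth is given as reads at summits. With 2 replicates of 1 group, no test between conditions was possible. An exact sign-flip test over the replicates could reach no lower p than 0.5, so no p values are given for these loci. Intervals given below are exact Poisson intervals (95%) of the summit reads, with the background held fixed. They cover counting error of these reads only.

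All 4 sites carried a peak in both replicates. The same held for 89.4% of the 1949 other positions listed by the study in direct target genes on chromosomes 1 to 17. Over the whole lists, 68.4% of the peaks of replicate 1 and 81.7% of those of replicate 2 overlapped a peak of the other replicate, so that recurrence in both replicates was common in either set. Each site held exactly 1 peak per replicate. The loci fell into a strong pair of sites at *Gy1* and single weaker sites at *Gy5* and β-conglycinin.

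*Gy1* encodes a glycinin subunit precursor. Its first site was a window of 101 bp on chromosome 3 at 37820253 to 37820353. Coordinates are taken to be those of Wm82.a2.v1, although the peak lists name no build. The peak on it spanned 37820092 to 37820634 in replicate 1 and 37820069 to 37820546 in replicate 2. Fold enrichment at this site was 16.3 in replicate 1 (interval, 13.6 to 19.3) and 18.5 in replicate 2 (14.9 to 22.8), or 17.4 ± 1.60 (mean ± SD, n = 2). It ranked 977th among 22982 peaks and 992nd among 20027 peaks, within the strongest 4.25% and 4.95% of the lists. On its own chromosome it ranked 46th of 1064 and 48th of 926. The summits of the replicates lay 13 bp apart, against a median of 40 bp over all regions occupied in both lists. The ratio of replicate 2 to replicate 1 was 1.14, next to the median of 1.13 over all regions.

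The second *Gy1* site lay on chromosome 3 at 37825723 to 37825823, and its peak spanned 37825496 to 37826025 in replicate 1 and 37825439 to 37825999 in replicate 2. Fold enrichment was 13.6 in replicate 1 (11.4 to 16.2) and 13.7 in replicate 2 (10.7 to 17.3), or 13.7 ± 0.0342 (n = 2). These values were 3.48 and 2.90 times the medians of the lists. The small SD therefore holds for the raw values and not for the standing within each list. The peak stood within the strongest 5.76% of replicate 1 and 7.88% of replicate 2. The first site was 1.19 times as enriched as the second in replicate 1 and 1.36 times in replicate 2. Their counting intervals overlapped in each replicate, although the order of the 2 sites was the same in both lists.

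The 2 *Gy1* windows lay 5470 bp apart. Between the peaks was a stretch of 4861 bp in replicate 1 and 4892 bp in replicate 2 that held 0 called peaks in either list. Of the 1799 direct target genes in the listed positions, 175 (9.73%) had at least 2 sites, so that *Gy1* belonged to a minority in this respect. In RefSeq (Glycine_max_v4.0), another glycinin gene, *GY2*, is the next gene to *GY1* on chromosome 3. The study lists both positions under Glyma.03G163500. Gene models of the build used for the peaks were not analysed here, so this assignment was not checked against the neighbouring gene. Some glycinin genes are close copies of each other, although how far this holds for the loci here was not examined. How reads mapping to more than 1 copy were treated was not found in the sources. Values at these loci are uncertain to that extent.

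*Gy5*, which encodes another glycinin subunit, had a much weaker site on chromosome 13 at 23668803 to 23668903. Its peak spanned 23668647 to 23668983 in replicate 1 and 23668638 to 23668960 in replicate 2. Fold enrichment was 4.71 in replicate 1 (3.40 to 6.37) and 5.28 in replicate 2 (3.49 to 7.70), or 5.00 ± 0.404 (n = 2). These values were 1.20 and 1.12 times the medians of the lists, and both intervals included the median. The peak ranked 8106th and 7872nd, within the strongest 35.3% and 39.3%. On chromosome 13 it was 581st of 1633 peaks and 569th of 1454 peaks. It was also the narrowest of the 4 peaks in each list, at 337 and 323 bp. The −log10 q of its summit was 13.9 in replicate 1 and 10.3 in replicate 2, within the strongest 37.8% and 44.3% by this measure. The lowest values in the lists were 2.09 and 2.11, as set by the authors' q threshold of 0.01.

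The β-conglycinin site lay on chromosome 10 at 47486301 to 47486401. Its peak spanned 47486099 to 47486522 in replicate 1 and 47486112 to 47486492 in replicate 2. Among the 4 sites, its value differed most between the replicates. Fold enrichment was 3.62 in replicate 1 (2.62 to 4.87) and 6.83 in replicate 2 (4.82 to 9.43), or 5.22 ± 2.28 (n = 2). In replicate 1 this was 0.922 times the median of the list and rank 13716, whereas in replicate 2 it was 1.45 times the median and rank 4850. The lower end of the interval in replicate 2, 4.82, lay just above the median of 4.71. The ratio between replicates was 1.89, and only 5.24% of the regions occupied in both lists lay farther from the median ratio. The summits lay 92 bp apart, the widest distance among the 4 sites. By fold enrichment without replicate 2, the site falls below the middle of the list (strongest 59.7%). Without replicate 1, it stands within the strongest 24.2%.

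**Figure D1:**
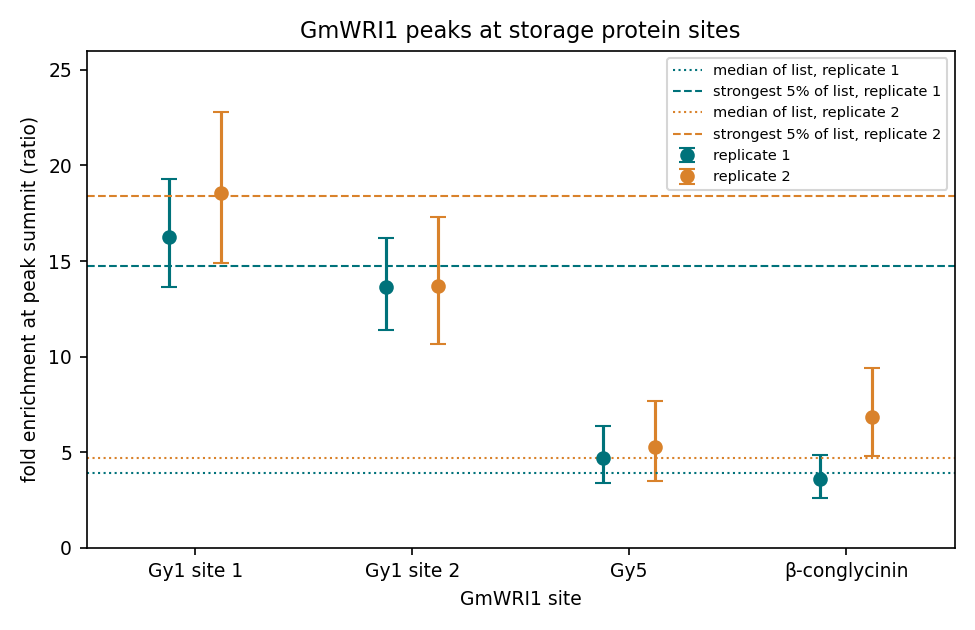
Fold enrichment at the peak summit (ratio, vertical axis) for the 4 storage protein sites, with 1 point per replicate and exact Poisson intervals (95%) as bars. Dotted and dashed lines mark the median and the start of the strongest 5% of each peak list. Both *Gy1* sites lie between 13.6 and 18.5, and the *Gy5* and β-conglycinin sites lie between 3.62 and 6.83, from 0.922 to 1.45 times the list medians.

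Ordered by mean fold enrichment, the sites ran from *Gy1* site 1 (17.4) and *Gy1* site 2 (13.7) to β-conglycinin (5.22) and *Gy5* (5.00). The last 2 differed by less than their spread and changed places between replicates. The *Gy1* sites did not overlap with the other sites in either replicate. The lower *Gy1* value was 2.90 times the higher of the other values in replicate 1 and 2.00 times in replicate 2. The mean of the *Gy1* sites over the mean of the others was 3.59 in replicate 1 and 2.66 in replicate 2, or 3.13 ± 0.660 (n = 2). No test was made of this difference, since sites are not replicates.

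The reads and the background behind each value were then separated. *Gy1* site 1 had 132 reads at its summit in replicate 1 and 88 in replicate 2, and site 2 had 126 and 67. These were 3.57 and 3.38 times (site 1) and 3.41 and 2.58 times (site 2) the median of the list. *Gy5* had 40 and 25 reads, or 1.08 and 0.962 times the median. β-conglycinin had 41 and 35 reads, or 1.11 and 1.35 times the median.

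The local background was low at *Gy1* site 1, with 7.17 expected reads in replicate 1 and 3.80 in replicate 2. To 3 significant digits, both equal the lowest background of their lists, which at least 6.96% and 4.95% of the peaks shared. These values therefore stand at a shared floor of the lists and are not particular to this site. At *Gy1* site 2 it was 8.31 and 3.97 reads, higher than at 52.5% and 17.6% of the peaks. At *Gy5* it was 7.70 and 3.92 reads, also below the list medians of 8.19 and 4.38. At the β-conglycinin site it was 10.6 reads in replicate 1, higher than at 84.9% of the peaks of that list, and 4.27 reads in replicate 2, higher than at 43.1%. In summit reads, *Gy5* and β-conglycinin were nearly equal in replicate 1. Their difference in fold enrichment in that replicate therefore lay in the denominator, with 10.6 against 7.70 expected reads.

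**Figure D2:**
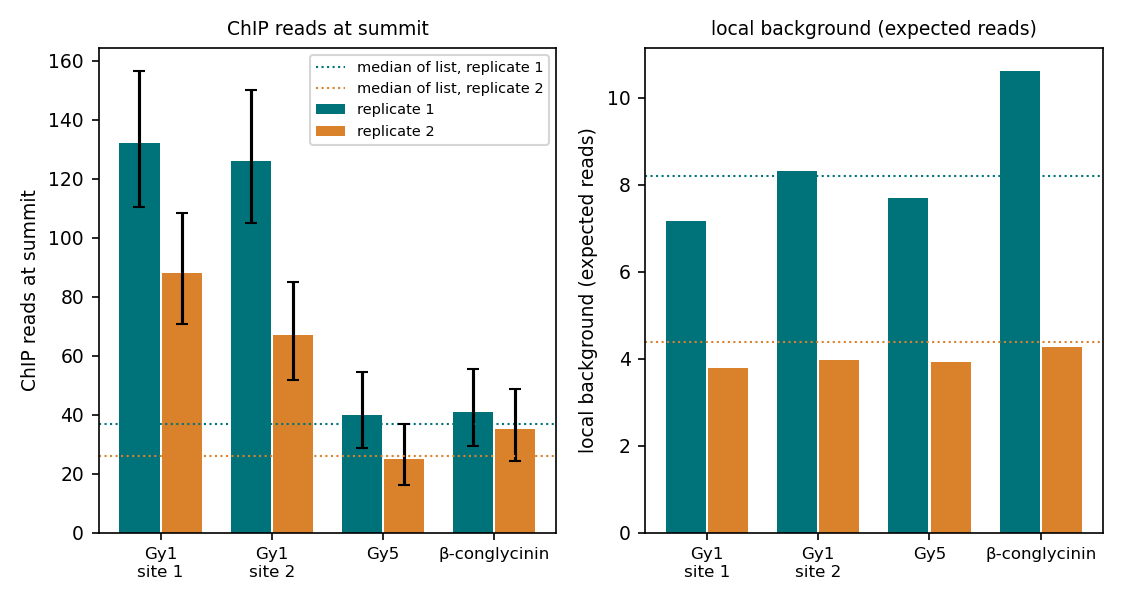
ChIP reads at the peak summit (left, with exact Poisson intervals of 95%) and local background in expected reads (right) at the 4 sites, with 1 bar per replicate. Dotted lines are the medians of the peak lists. The *Gy1* sites stand above the median number of reads in both replicates, and the highest bar of background is that of β-conglycinin in replicate 1, at 10.6.

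The position of the sites within the lists was also read against other sites of the study. Direct target genes are those the study found to be bound and coexpressed with GmWRI1. Among the other listed positions in such genes with a peak, the median was 5.51 in replicate 1 and 6.19 in replicate 2. *Gy1* site 1 was stronger than 87.3% of them in replicate 1 and 87.0% in replicate 2, and *Gy1* site 2 was stronger than 84.1% and 81.3%. *Gy5* was stronger than 38.6% and 36.7%, and β-conglycinin than 14.8% and 56.3%.

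The study also lists binding positions in genes of fatty acid and triacylglycerol synthesis (FAT genes), with medians of 23.1 and 28.0. They are bound positions and do not stand for all genes of these pathways. FAT positions were not taken out of the direct target positions, so both sets can overlap. Against the FAT positions, the shares were lower. *Gy1* site 1 was stronger than 45.2% of these in replicate 1 and 41.8% in replicate 2. *Gy1* site 2 exceeded 44.3% and 40.9%, and *Gy5* exceeded 20.9% and 17.3%. For β-conglycinin these shares were 6.09% and 28.2%. The *Gy1* sites thus stood above the median of the other direct target positions and below the median of the FAT positions. These shares are descriptions without a test.

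**Figure D3:**
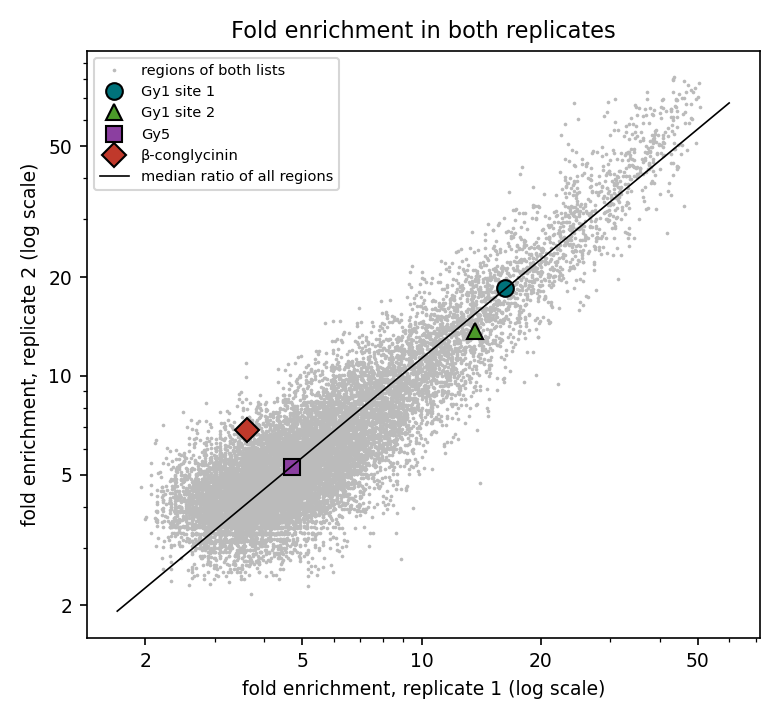
Fold enrichment in replicate 1 (horizontal, log scale) and replicate 2 (vertical, log scale) of the 15181 regions occupied in both lists (grey) and of the 4 sites (symbols). The line is the median ratio of all regions, 1.13. *Gy1* site 1 and *Gy5* lie close to the line, *Gy1* site 2 lies slightly below it at a ratio of 1.00, and β-conglycinin lies above it at 1.89.

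Other peaks within 20 kb were many around *Gy1*, near the usual number around β-conglycinin and absent around *Gy5*. *Gy1* site 1 had 7 other peaks in replicate 1 and 6 in replicate 2, and site 2 had 9 and 8. The 2 sites count each other and share most of these peaks. In replicate 1, 2.97% of all peaks had at least 7 others within 20 kb, and in replicate 2, 4.83% had at least 6. The median over each list was 2. β-conglycinin had 2 and 1 other peaks. *Gy5* had 0 in both replicates, whereas 82.4% of the peaks of replicate 1 and 79.6% of those of replicate 2 had at least 1.

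From 20 kb before *Gy1* site 1 to 20 kb after site 2, peaks covered 18.9% of the sequence in replicate 1 and 15.7% in replicate 2. There were 8 and 7 peaks there besides the 2 sites, and 7 of each overlapped a peak of the other replicate. In each list, more than 1 of these lay in the same wide region, so fewer separate regions than peaks recurred. Most were much weaker than the *Gy1* sites, with medians of 5.39 and 5.93. The exception was a wide region 13254 bp (replicate 1) and 13280 bp (replicate 2) after site 2. Its summit had a fold enrichment of 28.1 in replicate 1 and 24.6 in replicate 2, above both *Gy1* sites. The second highest of the other peaks had 6.54 and 7.12.

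That strongest neighbour overlapped cotyledon-stage peak positions annotated to Glyma.03G163700, with the description of a peptidase of the S24/S26 family. The study's list of bound genes was available here only in part. Whether it also lists this region at early maturation could therefore not be checked. According to the paper, the cotyledon-stage ChIP-Seq fell short of its quality limits. The paper adds that nearly all genes bound at that stage were also bound at early maturation. The neighbour stood within the strongest 1.48% of replicate 1 and 3.07% of replicate 2. The strongest peak of this stretch of chromosome 3 therefore did not belong to the glycinin sites. Its extent was called differently in the lists. In replicate 1 it ran from 37837390 to 37839730, beside a separate peak from 37836052 to 37837321 (6.49). In replicate 2 the main peak ran from 37836214 to 37839377, beside a separate peak from 37839460 to 37839842 (3.65).

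Near *Gy1* site 2, a pair of weaker peaks followed at 2027 and 3005 bp in replicate 1 and at 2187 and 3083 bp in replicate 2. Their fold enrichment was 5.85 and 6.54 in replicate 1 and 5.93 and 7.12 in replicate 2. Before *Gy1* site 1, a peak at 5091 and 5119 bp had 4.93 and 4.57. A farther peak at 8997 bp before site 1 (2.99) was called in replicate 1 but not in replicate 2. Beyond the strongest neighbour, a peak 16219 bp (replicate 1) and 16353 bp (replicate 2) after site 2 had 4.23 and 6.57. Between these, a peak 14700 bp and 14616 bp after site 2 had 3.45 and 4.28.

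Around β-conglycinin, the recurrent neighbour lay 2961 bp before the site in replicate 1 (2.52) and 2868 bp before it in replicate 2 (3.89). Both values lay below the median of their lists. A peak 11257 bp after the site (2.44) was called in replicate 1 alone. For *Gy5*, the nearest other peak lay outside 20 kb, 33273 bp after the site in replicate 1 (4.28) and 33196 bp after it in replicate 2 (4.52).

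**Figure D4:**
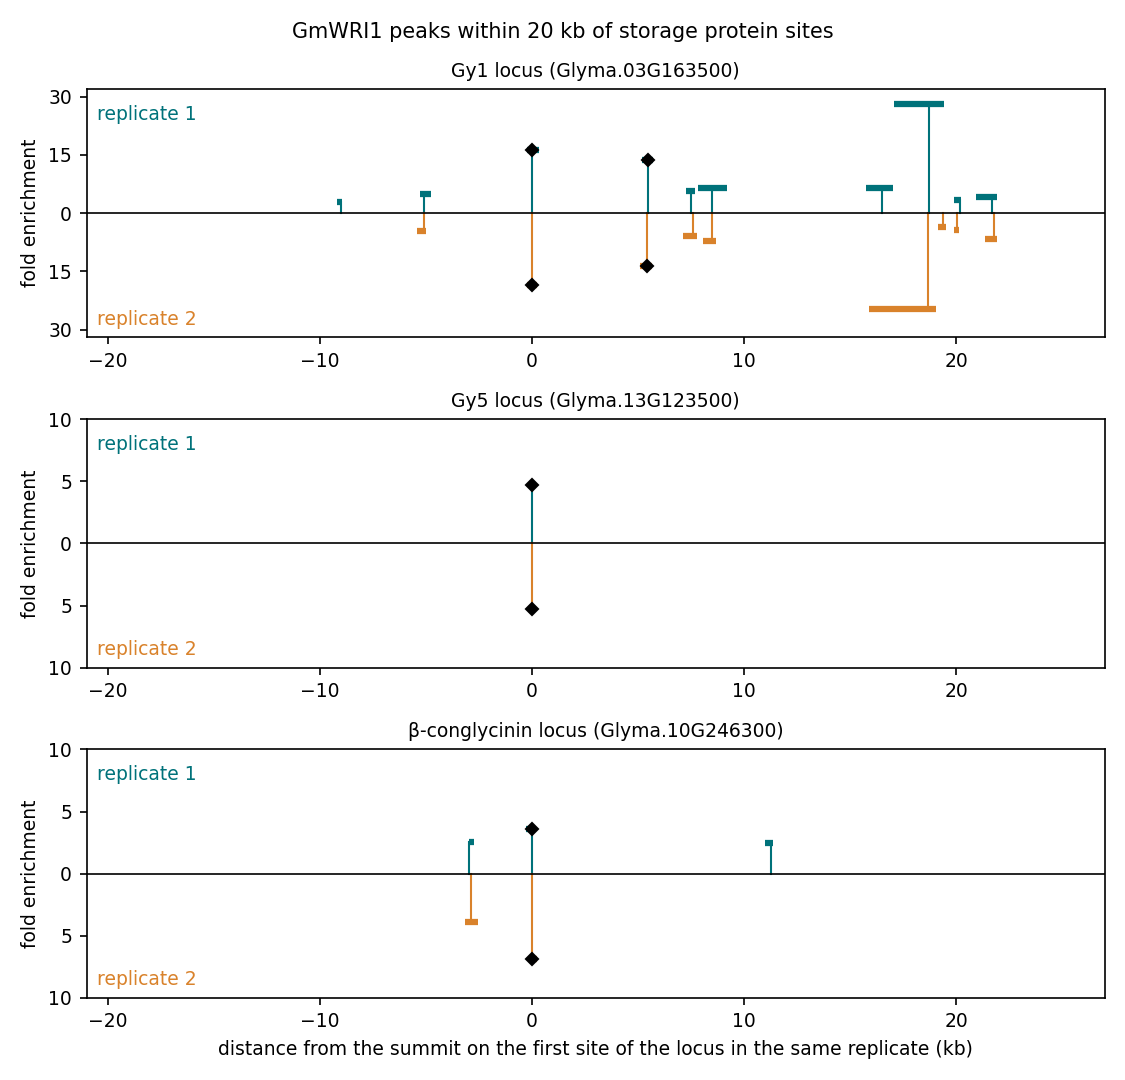
Peaks within 20 kb of the sites, by distance of the summit from the first site of the locus (kb, horizontal) and fold enrichment (vertical, replicate 1 upward and replicate 2 downward). Thick bars show the extent of each peak and black diamonds mark the storage protein sites. The *Gy1* map holds 10 peaks in replicate 1 and 9 in replicate 2, with the highest summit at 28.1 and 24.6, and the *Gy5* map holds no other peak.

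RefSeq (Glycine_max_v4.0) names 11 genes of the glycinin and β-conglycinin families in soybean. It pairs 0 of these names with the gene identifiers of the study, and the family members other than the 3 loci above were not analysed here.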

How the data were processed

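Embryos were fixed in 1% formaldehyde, chromatin was sonicated to 100 to 500 bp, and 3 µg of antibody was used for precipitation. Samples were grouped by their titles into ChIP (2) and input (2). Per the labels, the authors used Bowtie 0.12.7 for alignment and MACS2 (version not given in the sources used here) for peaks, with a q threshold of 0.01 in the peak names. The study's methods name MACS3, so the deposited lists need not be its final peaks. Replicates were called separately. The deposited fold enrichment is a ratio with a pseudocount of 1, and the authors' −log10 p and −log10 q refer to the summit. The deposited score, a display value, was not used.

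Whole summit reads and background were solved from fold enrichment and −log10 p, within 0.001, for 100% of the peaks. On 20000 simulated peaks, 100% of the read numbers were right. Positions came from the study's table of sites in direct target genes, used here for chromosomes 1 to 17. The 119 FAT positions came from a separate table of the study over 20 chromosomes, so both sets differ in coverage. Coordinates are 1-based. Wm82.a2.v1 was assumed as the build, as named in a note on gene annotation. The peak lists name no build. Gene symbols of the 3 loci rest on general knowledge. A peak was on a site at an overlap of 1 bp, and neighbours were counted between summits within 20 kb.

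Members and lists were chosen with earlier results of these data known. Named genes were the 3 loci and neighbours with a peak in both lists that a source names. Motif counts in promoters, also foreseen, were not made, since sequence was not used here. Alternatives were a −log10 q of at least 10, summits within 100 bp, 50% reciprocal overlap, no pseudocount, the nearest summit, ranks by −log10 q or among shared peaks, windows of 10 and 50 kb, and leaving out each replicate. Python 3.11.15, NumPy 2.4.6, pandas 2.3.3, SciPy 1.17.1 and Matplotlib 3.10.9 were used.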

Additional observations from a re-analysis of the deposited data

How the results depend on the processing

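The 4 sites kept a peak in both replicates under the 3 stricter definitions of a peak on a site, although the lowest −log10 q, 10.2 at β-conglycinin in replicate 1, lay just above the stricter limit of 10. With 2 replicates, leaving out 1 gives the value of the other, and the nearest summit gives the same peak, since each site held 1, so neither bears on stability. Without the pseudocount, fold enrichment averaged 20.8 at *Gy1* site 1, 16.0 at site 2 and 5.78 at *Gy5*. By −log10 q, the mean rank was within the strongest 5.40% for *Gy1* site 1 and 41.0% for *Gy5*. Among shared peaks it was 6.14% for *Gy1* site 1, 9.04% for site 2 and 48.8% for *Gy5*. Within 50 kb, the mean number of other peaks was 13.5 at *Gy1* site 1, 1 at *Gy5* and 3 at β-conglycinin, and within 10 kb it was 3 at *Gy1* site 2. With a −log10 q of at least 10, β-conglycinin had 0 others. The ratio of the *Gy1* sites to the others was 2.88 in summit reads over the list median and 3.23 without the pseudocount. Leaving out each replicate only restated the ratios of the single replicates, 2.66 and 3.59. No paired analysis was possible because only the ChIP samples had peak lists. The 25 to 41 summit reads limit the precision at *Gy5* and β-conglycinin.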

Other observations

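A further direct target gene of the study, Glyma.03G163900, lay just outside the window around *Gy1*. Its listed positions were 22673 and 26137 bp after *Gy1* site 2. The nearer one had a fold enrichment of 6.22 in replicate 1 and 5.33 in replicate 2, and the farther one had 14.4 and 12.8, close to the values of *Gy1* site 2.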
